A study of Mus musculus with 2 samples.

Results

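miR-1 and miR-133a are the miRNAs that mark striated muscle, and each was followed here together with the second arm of its hairpin, named miR-1-1* and miR-133a* on the array. These 4 miRNAs (mmu-miR-1, mmu-miR-1-1*, mmu-miR-133a and mmu-miR-133a*) were found by exact name among the 1023 mouse miRNAs of the array, through 9 probes that occupied 160 spots per array. Total RNA was taken from the quadriceps muscle of the thigh in females 15 to 16 weeks old. One sample came from NF90-NF45 double transgenic (dbTg) mice, which carry transgenes for both proteins, and the other from wild-type (WT) mice. A single-colour (Cy3) array was run for each genotype, 1 per group, so there were no replicates and no test was possible. The labels name neither the promoter of the transgenes nor the number of animals in a sample. The comparison asks how mature miRNA levels in muscle differ when NF90 and NF45 are both overproduced.

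miR-1 and miR-133a are made from the same primary transcripts, and their transcription is driven by muscle factors such as MyoD, MEF2 and SRF. miR-1 is known to promote muscle differentiation and to repress the histone deacetylase HDAC4. miR-133a is known to repress SRF and the membrane-remodelling GTPase dynamin 2, and mice without miR-133a develop a centronuclear myopathy. The Microprocessor nuclease cuts a hairpin out of a primary transcript and Dicer then releases the 2 arms of it. The asterisk marks the arm that is usually less abundant. NF90 and NF45 form a complex that binds double-stranded RNA and is known to attach to primary miRNA transcripts and to impede their cutting.

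The sequences below show how the second arm of miR-1 was read and how close the miR-206 and miR-133b products are to it and to miR-133a. Mature sequences are from RefSeq (GRCm38.p6), and capitals mark the seed, bases 2 to 8, with which a miRNA pairs to its targets. The array's miR-1-1* is miR-1a-1-5p in RefSeq, from chromosome 2 (chr2:180389057-180389079, plus strand). The other 4 are from chromosome 1, plus strand.
miR-1a-1-5p: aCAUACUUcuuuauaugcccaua
miR-206-5p: aCAUGCUUcuuuauauccucaua
miR-206-3p: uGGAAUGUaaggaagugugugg
miR-133b-3p: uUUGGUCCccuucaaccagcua
miR-133b-5p: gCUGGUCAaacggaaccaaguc
miR-1 shares its seed with miR-206-3p, and miR-133a shares its seed with miR-133b-3p. miR-1a-1-5p differs from miR-206-5p at 3 of 23 bases, 1 of them in the seed.

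The 3 probes of miR-1-1* are shown because the reading of this arm rests on the longest of them. Capitals mark the base that the next shorter probe lacks.
20-base probe: tatgggcatataaagaagta
21-base probe: tatgggcatataaagaagtaT
22-base probe: tatgggcatataaagaagtatG
All 3 pair with the arm from its last base, 23, and reach back to its bases 4, 3 and 2. The files place the longest at 180123764 to 180123784 on the plus strand of chromosome 2 in the mm9 build, and give no other place. For each of these 3 probes the span in the files is 1 base shorter than the probe. The probes of miR-1, miR-133a and miR-133a* each have 2 places, on chromosomes 2 and 18, so these signals add up the products of both genes. On chromosome 2 of mm9 the 21-base probe of miR-1 lies at 180123802 to 180123822, the 18-base probe of miR-133a at 180133146 to 180133163 and the 20-base probe of miR-133a* at 180133107 to 180133126. In the RefSeq annotation (GRCm38.p6) the hairpin genes Mir1a-1 and Mir133a-2 are 9254 bases apart and both lie inside the long noncoding RNA gene Mir1a-1hg, from 180385604 to 180401802 on chromosome 2.

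All 4 miRNAs were lower in dbTg quadriceps, where 49.1% of the 175 mouse miRNAs detected on both arrays were lower by any amount. Probes detected on both arrays set the scale, through their 75th percentile on each array, where detected means that at least 0.5 of a probe's spots were well above background. After scaling, miR-1 stood at 52.3% of its WT level, miR-133a at 45.4%, miR-133a* at 46.7% and miR-1-1* at 34.4%. A size of 2-fold was used for counting, and 3 of the 4 were at least 2-fold lower, against 10.3% of the 175. Without scaling, or with spike-in probes as the scale, 1 of the 4 was. None of the 4 was at least 2-fold higher, against 11.4% of the 175. The balance over all miRNAs moved with the scaling: 18 were at least 2-fold lower and 20 higher as scaled here, 8 lower and 49 higher without scaling, and 39 lower and 9 higher with scaling to positive control probes. The median log2 ratio, dbTg minus WT, was -1.12 for the 4 and 0.0031 for all 175. In whole muscle, fewer cells that make a miRNA and less of it per cell cannot be told apart.

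Mature miR-1 was read by 2 probes. On its 20-base probe the processed signal was 60304 ± 2378 on the dbTg array (SD, 20 spots), against 93133 ± 2527 on the WT array (20 spots). On its 21-base probe it was 165858 ± 3163 on the dbTg array (16 spots), against 205016 ± 6172 on the WT array (18 spots). The spots did not overlap on either probe, since the brightest dbTg spot of the 20-base probe reached 64335 and the dimmest WT spot 89948. These signals are before scaling, and the dbTg array was the brighter one as a whole, with scale factors of 1220 for dbTg and 882 for WT. The scaled log2 ratio was -0.93 (spot SE 0.0099), short of 2-fold. The spot SE covers the scatter among a probe's copies within an array and says nothing of the spread between animals.

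The 2 probes of miR-1 did not give the same size. The 20-base probe gave a log2 ratio of -1.10 (spot SE 0.015) and the 21-base probe -0.77 (spot SE 0.012). Their gap of 0.32 is many times the spot SE, so the size of the miR-1 difference is known less well than its spot SE says. Taking the brighter probe alone gives -0.77.

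Mature miR-133a was lower on both of its probes. The 17-base probe read 10944 ± 184 on the dbTg array (19 spots), against 19045 ± 321 on the WT array (18 spots). The 18-base probe read 53647 ± 1103 on the dbTg array (19 spots), against 78321 ± 1000 on the WT array (18 spots). Again the spots of the arrays did not overlap, the nearest being 11413 on dbTg and 18454 on WT for the 17-base probe. The probes gave scaled log2 ratios of -1.27 and -1.01, and their mean was -1.14 (spot SE 0.0057).

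**Figure D1:**
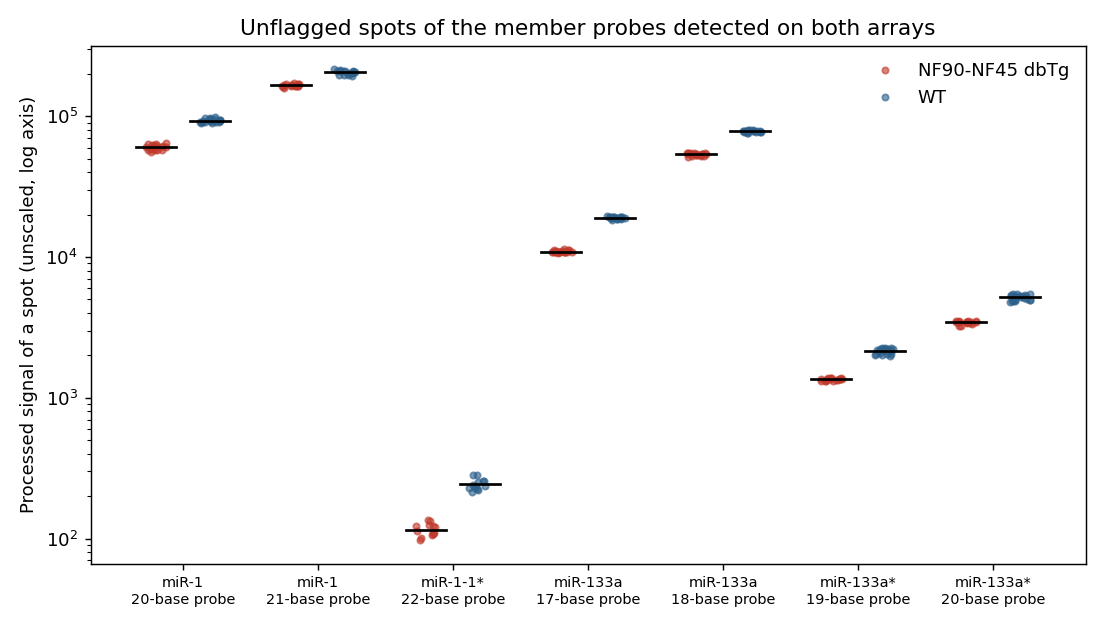
Processed signal of each unflagged spot, before scaling and on a log axis, for the 7 probes of the 4 miRNAs that were detected on both arrays. Red points are spots of the NF90-NF45 dbTg array, blue points spots of the WT array and black bars their means. On each of the 7 probes the dbTg spots lie below all WT spots.

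miR-133a*, the second arm of the miR-133a hairpins, was lower by nearly the same factor. Its 19-base probe read 1351 ± 25.4 on the dbTg array (17 spots), against 2151 ± 93.5 on the WT array (20 spots). Its 20-base probe read 3429 ± 81.1 on the dbTg array (18 spots), against 5167 ± 223 on the WT array (20 spots). The spots did not overlap on either probe. Scaled log2 ratios were -1.14 and -1.06, with a mean of -1.10 (spot SE 0.011).

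miR-1-1*, the second arm of the chromosome 2 hairpin, had the lowest ratio of the 4. Its 22-base probe read 116 ± 11.6 on the dbTg array (13 spots), against 243 ± 22.2 on the WT array (13 spots), and all spots were well above background. The brightest dbTg spot was at 134 and the dimmest WT spot at 214. This gave a scaled log2 ratio of -1.54 (spot SE 0.054), the 6th lowest of the 175 miRNAs. The other 2 probes were not detected. On the 21-base probe the mean was 16.1 on the dbTg array and 28.7 on the WT array, with 0 of 13 dbTg spots and 1 of 12 WT spots well above background. On the 20-base probe it was 2.72 on the dbTg array and 4.71 on the WT array, with none above background and with spots that overlapped.

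The second arm of the chromosome 18 hairpin of miR-1, miR-1-2*, is no member of the set, but it gives the only other reading tied to 1 of the 2 genes. It was detected on the WT array alone, by its 22-base probe, with 7 of 13 spots well above background. That probe read 17.6 ± 5.16 on the dbTg array, against 35.1 ± 10.2 on the WT array, and some spots overlapped. Since dbTg has only a bound, miR-1-2* was at least 1.51-fold lower there, computed after scaling against the lowest detected signal of the dbTg array, 32.3 before scaling. The WT signal of 35.1 stood little above this 32.3, so most of the bound comes from the scale factors. Probes of miR-1-1* and miR-1-2* of the same length differ at 2 bases, so part of the miR-1-2* signal could be miR-1-1*, which was not tested. The antisense products miR-1-2-as-5p and miR-1-2-as-3p were not detected in either genotype.

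Spots at the same place on both arrays were also compared 1 by 1. This holds the place within an array fixed, but not the place of the array on the shared slide. All 118 such pairs over the 7 detected probes were lower in dbTg, before as well as after scaling. The dbTg spots lay below all WT spots on each of the 7 probes, and scaling lowers dbTg further. Any pairing would thus give this count, which is no separate result. For miR-1-1* the paired log2 ratios ran from -1.73 to -1.29 with a median of -1.56 (13 pairs). For miR-133a they ran from -1.32 to -1.21 on the 17-base probe (18 pairs) and from -1.07 to -0.98 on the 18-base probe (17 pairs). These are copies of a probe within 1 pair of arrays and not replicates of the genotype.

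**Figure D2:**
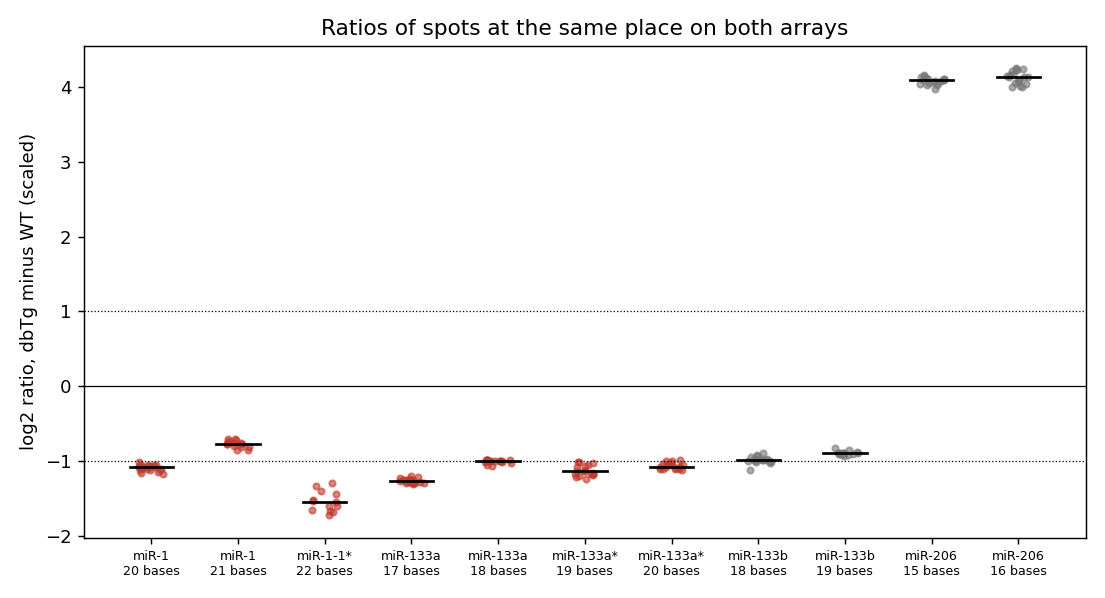
Scaled log2 ratio, dbTg minus WT, of spots at the same place on both arrays, by probe, for the 4 miRNAs (red) and for miR-133b and miR-206 (grey). Black bars are medians and dotted lines mark 2-fold. All red points are below 0, while those of miR-206 lie near 4.

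The arms of a hairpin can be compared without regard to scaling, since a single factor per array cancels. For miR-133a the second arm minus the main arm was 0.041 on the log2 scale (spot SE 0.013), the smallest absolute difference among the 18 arm pairs detected on both arrays. The sign of so small a difference is not settled, as it came to -0.046 with the brightest probe per miRNA and to -0.68 under quantile normalization. For miR-1 the second arm was lower than the main arm by a further 0.60 (log2 difference -0.60, spot SE 0.055), rank 14 of the 18 from the smallest. The median absolute difference over the 18 pairs was 0.36. This pair is not matched by gene, since miR-1-1* comes from chromosome 2 alone and miR-1 from both genes. With normexp background correction, which here adds an offset of 50 to every signal, the difference was -0.26.

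miR-206 and miR-133b, which carry the seeds of miR-1 and miR-133a but come from chromosome 1, went apart. miR-206, a miRNA of satellite cells and regenerating fibres, read 11104 ± 375 on its 15-base probe on the dbTg array (19 spots), against 471 ± 21.4 on the WT array (19 spots). Its log2 ratio was 4.11, so miR-1 and miR-206 differed by -5.05 in log2 ratio (spot SE 0.018). The probes of miR-1 mismatch miR-206-3p at 4 bases, and miR-1 read lower in dbTg although miR-206 was higher there.

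miR-133b was lower like miR-133a. Its 18-base probe read 25735 ± 692 on the dbTg array (20 spots), against 36704 ± 938 on the WT array (18 spots). Its log2 ratio was -0.94, which makes it the miRNA with the ratio nearest to that of miR-1, at a difference of 0.0074. miR-133a was lower than miR-133b by a further 0.20 (log2 difference -0.20, spot SE 0.0096), and this ranged from -0.54 to -0.11 over the processing alternatives. The probes of miR-133a mismatch miR-133b-3p at 1 base, so each may read some of the other, and how much was not tested. The probes of miR-133a* mismatch miR-133b-5p at 3 bases, and miR-133b* itself was not detected on either array.

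**Figure D3:**
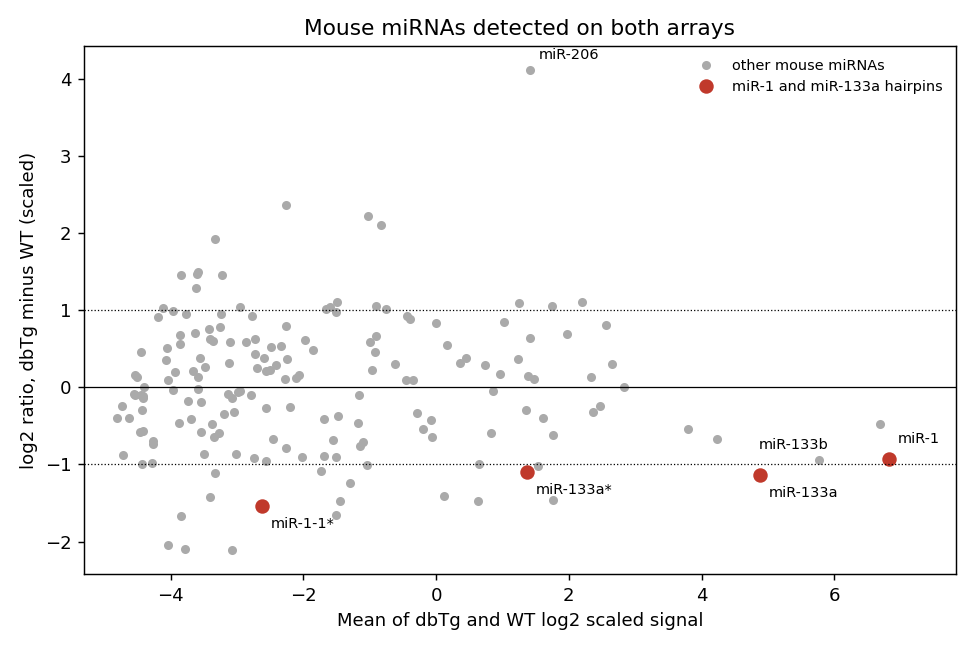
Scaled log2 ratio, dbTg minus WT, against the mean scaled log2 signal for the 175 mouse miRNAs detected on both arrays, with miR-1, miR-1-1*, miR-133a and miR-133a* in red. Dotted lines mark 2-fold; the red points lie between -1.54 and -0.93, at signals from dim to the brightest on the array.

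Of 14 other muscle miRNAs listed, 13 were named on the array and 5 were detected on both arrays. Besides miR-206 and miR-133b these were miR-3107, miR-3107* and miR-486*, from the locus of miR-486, a muscle miRNA known to favour PI3K and Akt signalling. Of the 5, 3 were at least 2-fold lower and 1 was at least 2-fold higher, against 10.3% and 11.4% of the 175 miRNAs detected on both arrays. The 3 lower ones were miR-3107, miR-3107* and miR-486*, all from 1 locus, so they are not 3 separate results. The median log2 ratio of the 5 was -1.47, which is the value of miR-3107. miR-3107 had a log2 ratio of -1.47, the nearest to that of miR-1-1* among all other miRNAs. miR-499, hosted by the myosin gene Myh7b, could be set against WT only as a bound: it was at least 1.81-fold higher in dbTg, as it was not detected in WT. The other 7, among them both arms of the cardiac miR-208a and of miR-208b, were not detected on either array. The spots of miR-208b still did not overlap on its 2 probes. Before scaling they read 21.0 and 21.5 on the dbTg array, against -4.79 and -4.46 on the WT array, all near background.

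By closeness of log2 ratio over the 2 arrays, the 3 nearest miRNAs outside the set were taken for each of the 4. Nearest to miR-1 after miR-133b were miR-30e* at -0.95 and miR-345-5p at -0.91. Nearest to miR-1-1* after miR-3107 were miR-378, hosted by Ppargc1b, the PGC-1β gene of mitochondrial biogenesis, and miR-29c, a repressor of collagen genes, both at -1.47. Nearest to miR-133a were miR-136 at -1.11, miR-30a* at -1.09 and miR-193b at -1.24. miR-30a* and miR-136 were also nearest to miR-133a*, followed by miR-30a at -1.02. With 2 arrays a likeness in ratio is only a likeness in 1 number.

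Markers of muscle and of other cells were set beside these values. Of 6 other skeletal muscle markers, 5 were named on the array, and all but miR-208b were detected on at least 1 array, with summed scaled signals of 59.1 on the dbTg array and 91.1 on the WT array. miR-133b made up 47.4 of the dbTg sum and 89.8 of the WT sum. The list did not go one way, as the log2 ratio was -0.94 for miR-133b and -1.47 for miR-3107 but 4.11 for miR-206, and miR-499 was detected in dbTg alone. Of 6 immune-cell miRNAs, 5 could be compared and all 5 were higher in dbTg, from a log2 ratio of 0.26 for miR-150 to 2.36 for miR-146a, while miR-142-5p was detected in dbTg alone. Their summed scaled signal was 2.31 on the dbTg array and 0.699 on the WT array. All 6 fibroblast miRNAs on the array were above 0 as well, from 0.54 to 1.04, with sums of 5.59 on the dbTg array and 3.26 on the WT array. Over the array, 86 of the 175 miRNAs detected on both arrays were below 0. Of the 4 vessel miRNAs, miR-143 and miR-145 of smooth muscle were both at -0.65, while the endothelial miR-126-5p was at -0.095 and miR-126-3p at 0.13. Their sums were 6.37 on the dbTg array and 6.40 on the WT array. For both red-cell miRNAs they were 2.51 on the dbTg array and 3.06 on the WT array. The signs of small ratios hang on the scaling. Positive control probes shift each log2 ratio by -0.34, more than the 0.26 of miR-150. No scaling shifts each by 0.47, more than the size of the -0.095 of miR-126-5p. None of 7 markers of organs other than muscle, among them miR-122 of liver, miR-124 of neurons and miR-375 of islets, was detected on either array. The part of these cells in the lower miR-1 and miR-133a was not tested.

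The size of the differences depends on how the arrays are scaled to each other. Under no scaling at all the log2 ratios were -0.47 for miR-1, -1.07 for miR-1-1*, -0.67 for miR-133a and -0.63 for miR-133a*, while the median miRNA was at 0.47. Relative to the median miRNA the 4 were at -0.94, -1.54, -1.14 and -1.10. Each scaling by 1 factor per array leaves these values the same by construction, since the factor cancels. The software's own total gene signal for miR-1 was nearly equal before scaling, slightly higher on the dbTg array at 84839 than on the WT array at 84300. Its scaled log2 ratio was -1.12, so by this measure the direction comes from the scaling. Quantile normalization, which gives both arrays the same set of signals, left miR-1 at -0.14 and miR-133a at -0.54 but miR-1-1* at -1.61 and miR-133a* at -1.23. miR-1 was the brightest of the 175 and miR-133a the 4th brightest. Among the 20 brightest other miRNAs the median log2 ratio was -0.12, with 10 of 20 below 0.

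**Figure D4:**
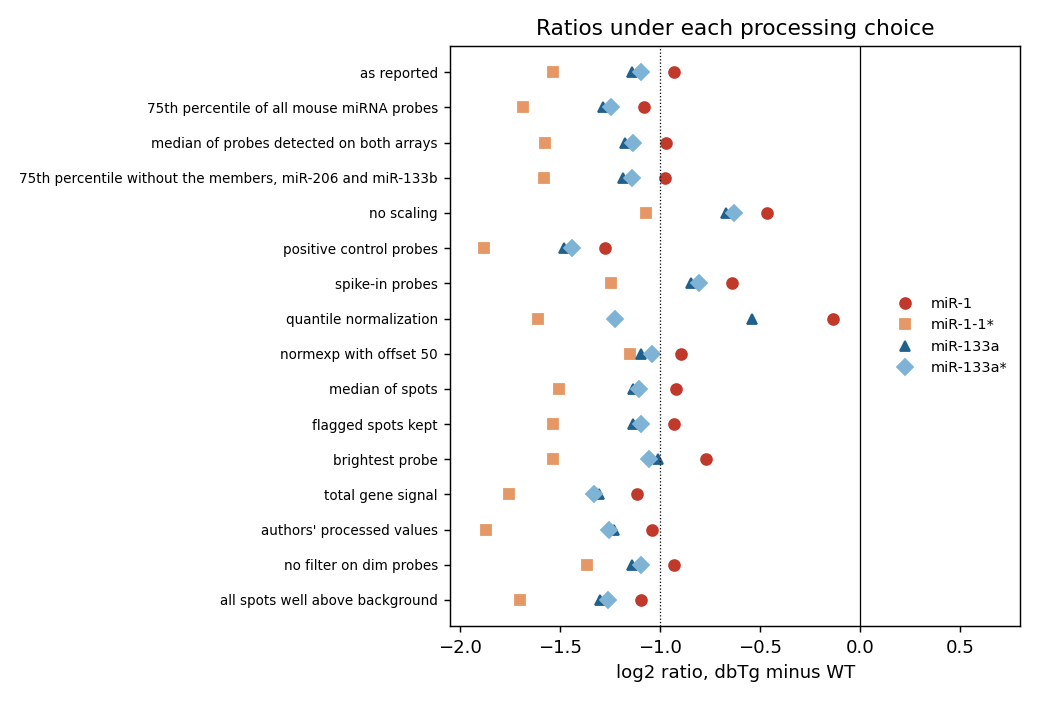
log2 ratio, dbTg minus WT, of the 4 miRNAs as reported (top row) and under each of 15 other processing choices. Each symbol is 1 miRNA and the dotted line marks 2-fold lower. All 64 values are below 0, and miR-1-1* lies beyond 2-fold in every row.

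The authors' processed values for these miRNAs were also lower in dbTg. For miR-1 they were 552 on the dbTg array, against 1134 on the WT array, and for miR-133a 158 on the dbTg array, against 370 on the WT array. Their log2 ratios were -1.04 for miR-1, -1.87 for miR-1-1*, -1.23 for miR-133a and -1.26 for miR-133a*, which puts all 4 past 2-fold. For miR-1, miR-133a, miR-133a*, miR-206 and miR-133b each equals the total gene signal over a fixed number, 154 on the dbTg array and 74.3 on the WT array. The values of these 5 are thus the same readings on another scale and no separate measurement, and for miR-1, whose total gene signals were nearly equal, the ratio comes from these numbers. How they were chosen is unknown.

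The promoter of Mir1a-1hg is shown because the data bear on products of its transcript, miR-1-1* among them. It covers 250 bases before to 50 bases after the RefSeq start (chr2:180385354-180385653, GRCm38.p6, plus strand), with capitals for matches to the E-box, the motif of MyoD-family factors.
Mir1a-1hg: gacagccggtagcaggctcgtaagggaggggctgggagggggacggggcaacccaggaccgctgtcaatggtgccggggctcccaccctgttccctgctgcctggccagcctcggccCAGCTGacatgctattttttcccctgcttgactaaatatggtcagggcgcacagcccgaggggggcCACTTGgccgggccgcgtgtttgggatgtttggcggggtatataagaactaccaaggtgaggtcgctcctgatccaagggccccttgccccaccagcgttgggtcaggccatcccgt
The E-box was searched as CANNTG, which covers both strands, and the window held 2 matches that overlap no other motif searched. Of all promoters of this length in the table, 72.3% hold at least 1. The MEF2 site and the CArG box, the motif of SRF, had no match in this window, and 3.19% and 1.63% of all promoters hold them. Weaker matches and sites outside the window were not searched, so the gene may still have such sites.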

How the data were processed

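Spot intensities were deposited by the authors as 1 Agilent Feature Extraction 10.7.3.1 file per array, in which background and a spatial trend had been subtracted, per the file headers. Arrays had not been scaled to each other. Both arrays shared the design, slide and scan. Labelling followed the Agilent miRNA kit, per the labels. A table of the authors' processed intensities was used as an alternative only. Its column medians equal its lowest values, 0.00065 for dbTg and 0.00135 for WT, and the basis of its scaling is unknown.

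Computed here (Python 3.11.15, pandas 2.3.3; normexp with limma 3.58.1): unflagged spots of a probe were averaged, which left out 12 of 160 spots of these miRNAs on dbTg and 7 on WT. No spot was saturated. Of 43200 miRNA spots, 17.7% on dbTg and 14.9% on WT were well above background. Scaled log2 signals were averaged over the probes of a miRNA detected on both arrays. The number of arrays limits precision. With 1 array per genotype no p-value is given, and named miRNAs follow a rule: all 4 members, the partners by seed, the muscle list and the 3 nearest ratios. miR-1-2* and its antisense products and the marker miRNAs were named besides. The members and lists were chosen with earlier results of these data known. The scripts were tested on simulated data.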

Additional observations from a re-analysis of the deposited data

How the results depend on the processing

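All 4 miRNAs were lower in dbTg under all 15 alternatives run on them, and miR-1-1* was at least 2-fold lower under each (-1.88 to -1.07). Total gene signal was run only after scaling. Before scaling it was 84839 for miR-1 on the dbTg array, against 84300 on the WT array. By that measure the direction for miR-1 rests on the scaling. miR-1 passed 2-fold with scaling on all mouse miRNA probes (-1.08) or positive control probes (-1.28), with total gene signal (-1.12), with the authors' values (-1.04) and with only probes whose spots were all above background (-1.10), and came to -0.14 under quantile normalization. miR-133a fell short of it without scaling (-0.67), with spike-in probes (-0.85) and under quantile normalization (-0.54), and miR-133a* without scaling (-0.63) and with spike-in probes (-0.81). So 1 of the 4 counted as at least 2-fold lower without scaling and with spike-in probes. At a threshold of 3-fold, 0 were lower with the scaling used for the main values. Some other settings took miR-1-1* past 3-fold, among them positive control probes (-1.88) and the authors' values (-1.87). Quantile normalization moved miR-1-1* minus miR-1 to -1.48, miR-1 minus miR-206 to -4.33 and miR-133a* minus miR-133a to -0.68. The last was also below 0 with the brightest probe (-0.046), total gene signal (-0.022) and the authors' values (-0.022).

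Over all mouse miRNAs, 18 were at least 2-fold lower and 20 higher. These counts came to 31 and 10 with scaling on all mouse probes, 8 and 49 without scaling, 39 and 9 with positive controls, 11 and 35 with spike-ins, 32 and 10 with total gene signal and 31 and 11 with the authors' values. Without the filter on dim probes they were 91 and 118 of 548 miRNAs, at 1.5-fold 44 and 44, and at 3-fold 5 and 5. Those higher numbered 7 with normexp correction and 7 with the strict filter. The cause of these shifts was not tested, beyond the number of miRNAs and the factor that each setting fixes. No paired analysis was possible because each genotype has 1 array. Spread between animals is unknown, and miR-1-1* rests on 1 probe.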

Other observations

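On each member read by 2 detected probes, the brighter probe gave the ratio nearer to 0. For miR-1 the brighter probe was higher by 0.32 in log2 ratio, for miR-133a by 0.25 and for miR-133a* by 0.080, and for miR-133b by 0.077. Over the array the same held for 47 of 65 miRNAs with 2 detected probes that were lower in dbTg. Of 67 that were higher in dbTg, the brighter probe was nearer to 0 for 30. The median gap, brighter minus dimmer probe, was 0.034 among the 65 and 0.018 among the 67, so the gaps of miR-1 and miR-133a were larger than the median. This pattern was noticed in these data, and no cause was tested.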
